A study of Mus musculus with 23 samples.

Results

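The ageing of quadriceps muscle was followed in mice that overexpress Nampt in skeletal muscle, by comparing MCK-NamptOE libraries at 24 months with MCK-NamptOE libraries at 4 months across all genes. The libraries were chosen by their labelled genotype and age, and are 7 of the 23 in the series: 4 at 24 months (OE_24m) and 3 at 4 months (OE_4m). All mice were of the C57BL/6 background, ate standard chow and were now and then given tests of glucose and exercise tolerance. The transgene is named for MCK, the muscle creatine kinase promoter, which is active in muscle fibres, and not in the other cells of the tissue. The same poly(A) mRNA measurement in wild-type (WT) mice of 4 months (WT_4m, 4 libraries) and 24 months (WT_24m, 4 libraries) serves as the reference for ageing without the transgene. The titles carry a different animal number for each library, the labels used here do not give the sex of the mice or the number of transgenic founders, and replicates are numbered only to name them.

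Nampt encodes the enzyme that sets the pace of NAD salvage, in which cells remake this coenzyme from nicotinamide, and NAD carries electrons in glycolysis, the tricarboxylic acid cycle and fatty acid oxidation. Quadriceps is a mixed muscle in which fast fibres dominate, and slow fibres carry their own set of myosin, troponin and calcium pump genes. With age, muscle is known for loss of fibres and nerve contacts and for changes of the matrix that surrounds the fibres.

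The 15 libraries held 2032544 to 3443762 counts on genes, and the 7 MCK-NamptOE libraries spanned the same range (OE_4m 2032544 to 3443762, OE_24m 2316325 to 2588148). Levels are CPM, a gene's counts relative to the TMM-scaled total of its library. Changes are log2 fold changes (log2 change) of 24 against 4 months with their standard error (SE) from edgeR's quasi-likelihood test, and a gene is called at an adjusted p below 0.05 over all 9144 genes tested. The Y-linked gene Ddx3y was detected in all 15 libraries (55.0 to 119 CPM). The skeletal muscle identity of the samples was clear from its defining markers: all 14 were detected, with summed levels of 177967 to 192948 CPM in OE_4m and 159328 to 179531 CPM in OE_24m. Among markers of other cells, the summed level of those of B and plasma cells was higher in every OE_24m library (67.6 to 160 CPM against 36.1 to 54.5 CPM), as was that of ectopic mesothelial and epithelial cells (2.18 to 4.03 against 0.564 to 1.64 CPM), and those of T and NK cells (0.403 to 2.27 against 2.82 to 5.05 CPM) and satellite cells (25.0 to 30.5 against 30.8 to 39.4 CPM) were lower in every one. In WT the sum of B and plasma cell markers was also higher in every old library (98.5 to 184 CPM against 56.2 to 88.0 CPM). That of satellite cells was 25.0 to 32.7 CPM in WT_24m and 32.4 to 44.1 CPM in WT_4m. The satellite, ectopic and T and NK sums overlapped between the WT ages. The ectopic and the T and NK sums rest on few reads. Of 10 ectopic genes 6, and of 16 T and NK genes 8, had 0 counts in all 7 libraries. For both lists, 0 members passed the filter on low counts. Of 19 such library properties none passed a two-sided exact permutation test (lowest p = 0.0571, the smallest that 4 against 3 libraries allow, adjusted p = 0.271).

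Nampt (chr12:32819545-32853349, plus strand, genome build mm10) stood at 5093, 5705 and 4441 CPM in the OE_4m libraries and at 5736, 4107, 5422 and 9533 CPM in the OE_24m libraries. OE_24m replicate 4 was the highest, and the other OE_24m libraries lay on both sides of the OE_4m range. The change with age was not called (log2 change 0.29 with SE 0.19, adjusted p = 0.632). WT libraries held 203 to 253 CPM at 4 months and 189 to 219 CPM at 24 months, so every transgenic library lay far above every WT library at both ages.

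Of 9144 genes, 67 were called between 24 and 4 months in MCK-NamptOE muscle (0.733% of the genes tested), 29 higher (0.317%) and 38 lower (0.416%). On the lower side stood 7 collagen genes, the endothelial genes Cdh5 and Pecam1, and 3 fast fibre genes. The slow fibre calcium pump Atp2a2, its small inhibitor Sln and the transport genes Slc6a17, Slc1a1 and Slc25a33 stood on the higher side. Changes of at least 2-fold were reached by 19 of the 29 rises and 20 of the 38 falls. The libraries of both ages did not overlap for 66 of the 67, Cd34 being the exception, against 10.3% of all genes tested. The 67 were called on these same libraries, so nothing is read from this separation. At an unadjusted p below 0.05 there were 1010 of the 9144 genes. The number of calls was 22 without OE_4m replicate 1 and 11 without OE_4m replicate 2, and by DESeq2 it was 126 (68 higher and 58 lower), all 67 among them.

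**Figure D1:**
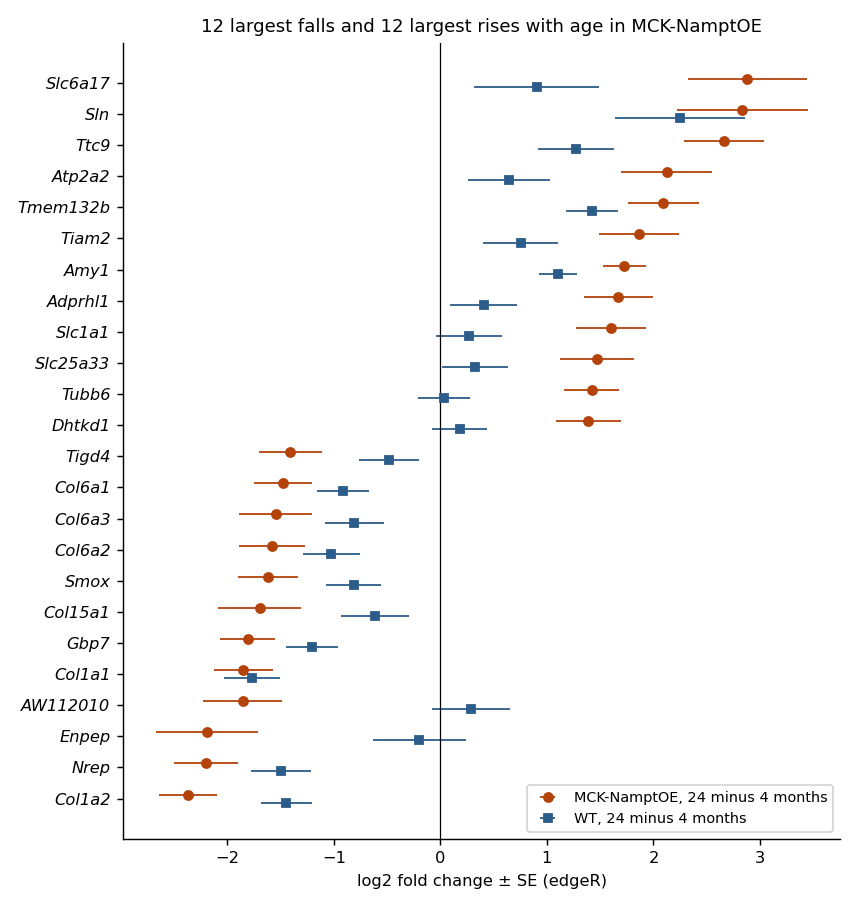
Log2 fold change with age (horizontal axis, 24 against 4 months, bars are the SE of the edgeR fit) for the 12 largest falls and 12 largest rises among genes called in MCK-NamptOE muscle, with the same genes in WT. The MCK-NamptOE values run from -2.37 for Col1a2 to 2.88 for Slc6a17, and the WT values lie nearer to 0 for each of the 24 genes. The genes were chosen on their MCK-NamptOE values, so nothing is read from the smaller size in WT.

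Collagen and matrix genes gave 7 falls, more than any other list. Type I collagen, the main fibrillar collagen of tendon and muscle sheaths, is built of the chains of Col1a1 and Col1a2. Col1a2 (chr6:4504814-4541544, plus strand) stood at 41.9, 30.4 and 37.3 CPM in OE_4m and 5.64, 8.71, 7.93 and 5.72 CPM in OE_24m. All 4 old libraries lay far below the lowest young one, and Col1a2 fell to 19.4% of the 4-month level (log2 change -2.37 with SE 0.27, adjusted p = 5.91e-05). Col1a1 (chr11:94936224-94953042, plus strand) had 23, 28.2 and 25.7 CPM in OE_4m and 4.83, 9.15, 8.31 and 6.16 CPM in OE_24m, again without overlap (log2 change -1.85 with SE 0.28, adjusted p = 0.00118). Both calls held under all 12 alternatives run.

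Type VI collagen forms the beaded microfibrils next to the fibre's basement membrane, and all 3 of its chains that were tested fell. Col6a1 went from 20.5, 19.7 and 17.2 CPM to 5.23, 9.58, 9.44 and 3.08 CPM (log2 change -1.48 with SE 0.27, adjusted p = 0.0084), Col6a2 from 15.6, 21.1 and 15.6 CPM to 2.42, 9.58, 6.42 and 5.28 CPM (log2 change -1.58 with SE 0.31, adjusted p = 0.0121), and Col6a3 from 13.5, 11.3 and 8.58 CPM to 2.42, 6.53, 4.53 and 1.76 CPM (log2 change -1.55 with SE 0.34, adjusted p = 0.0242). OE_24m replicates 1 and 4 were the lowest of the old libraries for all 3 chains. Col15a1, a collagen of basement membranes, had 8.62, 9.87 and 7.57 CPM at 4 months and 3.22, 4.79, 1.13 and 1.76 CPM at 24 months (log2 change -1.70 with SE 0.39, adjusted p = 0.0339), and Col5a3, a chain of the minor fibrillar collagen V, 22.6, 24 and 17.7 and 9.26, 14.8, 11.3 and 8.8 CPM (log2 change -0.97 with SE 0.21, adjusted p = 0.0242). Col6a1 was not called without OE_4m replicates 1 or 2 (adjusted p = 0.0508 to 0.0718). Col6a2 was not called without OE_4m replicate 2 (adjusted p = 0.139). Col6a3 was not called without OE_4m replicates 1 or 2 or OE_24m replicates 1 or 4 or with the MCK-NamptOE libraries fitted alone (adjusted p = 0.0582 to 0.15). Col15a1 and Col5a3 were not called without OE_4m replicates 1 or 2 or OE_24m replicates 1, 3 or 4 or with the MCK-NamptOE libraries fitted alone (adjusted p = 0.0523 to 0.225).

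Of 35 collagen and matrix genes tested, 7 fell, 0 rose and 28 were not called. The log2 fold change was negative for 31 of the 35, with a median of -0.69 against 0.02 over all genes tested, and 12 members had lower values in every old library (5.24% of all genes did). Col3a1, the chain of collagen III, was one of those 12 and was not called: it had 52.5, 55 and 43.4 CPM at 4 months and 10.9, 15.2, 14 and 10.6 CPM at 24 months (log2 change -1.99 with SE 0.46, adjusted p = 0.0816). The small leucine-rich proteoglycan Dcn overlapped between ages, at 329 to 462 and 138 to 390.2 CPM (log2 change -0.55 with SE 0.26, adjusted p = 0.444), and the collagen prolyl hydroxylase P4ha2 had a positive change (0.43, adjusted p = 0.486). The number of collagen and matrix genes called ranged from 2 without OE_4m replicate 2 to 9 without OE_24m replicate 2, was 4 without OE_24m replicates 1 or 4, each left out in turn, and 3 without OE_4m replicate 1. It was 10 by DESeq2 and 18 without a filter on low counts. In WT muscle the median of the same 35 genes was -0.65, with 2 called, Col1a1 and Col1a2, and 18 of the 35 did not overlap between ages, all 18 lower (5.40% of all genes did not overlap in WT).

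**Figure D2:**
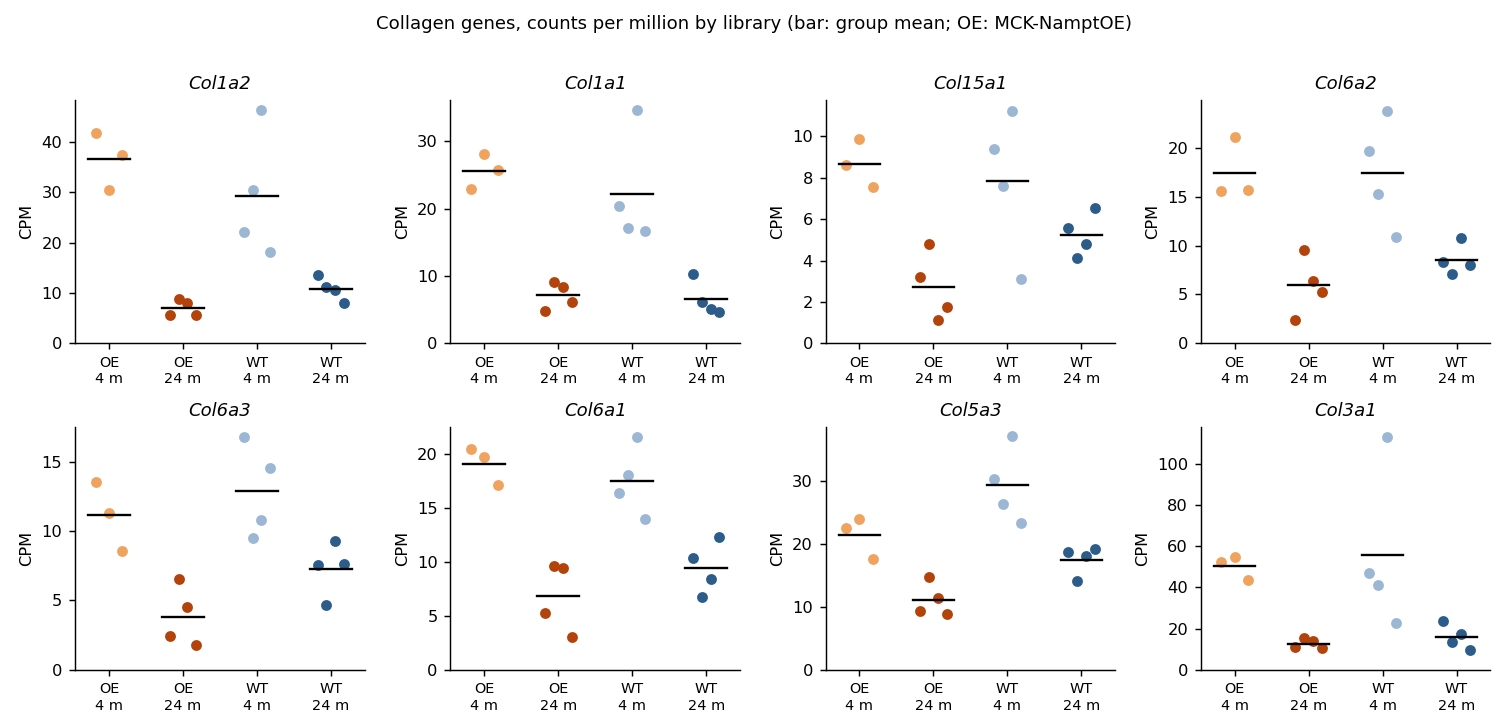
CPM (vertical axis, from 0) of the 7 called collagen genes and Col3a1 in each library, as points by genotype and age (OE stands for MCK-NamptOE), with the group mean as a bar. Each OE_24m library lies below each OE_4m library in all 8 panels, and the WT libraries of 24 months lie mostly below those of 4 months.

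Besides the collagens, 3 markers of endothelial and fibro-adipogenic cells fell: Cdh5, Pecam1 and Cd34. Cdh5, the cadherin of endothelial junctions, was tight within each age, with 50.1, 51.3 and 52.5 CPM in OE_4m and 29, 29.2, 28.7 and 26.9 CPM in OE_24m (log2 change -0.85 with SE 0.15, adjusted p = 0.00698). Pecam1, an adhesion molecule of the same cells, went from 50.1, 38.6 and 37.3 to 27, 27.9, 23.8 and 21.1 CPM (log2 change -0.75 with SE 0.16, adjusted p = 0.0236). These 2 were the endothelial markers called of 17 tested (0.416% of all genes were called lower). The median over the 17 was -0.38 in MCK-NamptOE and -0.43 in WT, where all 17 were negative. The summed level of the endothelial markers overlapped between ages (552 to 594 CPM in OE_4m, 398 to 567 CPM in OE_24m). Cd34, a surface protein of fibro-adipogenic progenitors and endothelium, had 27.9, 27.1 and 21.7 CPM at 4 months and 10.5, 22.7, 10.2 and 6.6 CPM at 24 months, and OE_24m replicate 2 overlapped the young libraries (log2 change -1.05 with SE 0.25, adjusted p = 0.048). Of 14 fibroblast and fibro-adipogenic markers, Col1a1, Col1a2 and Cd34 fell and 0 rose. The median over the 14 was -0.60 in MCK-NamptOE and -0.47 in WT. The summed level of these markers was 922 to 1248 CPM in OE_4m and 385 to 975 CPM in OE_24m, and it overlapped between ages. Col1a1, Col1a2 and Col3a1 belong to this list, so its sum is not separate from the collagens, and its part in the collagen falls was not tested. Tendon markers were measured as well: the summed level of 12 genes was 52.99 to 125 CPM in OE_4m and 18.9 to 86.5 CPM in OE_24m, the median of the 3 tested was -1.25 (WT -1.32) and 0 were called. Of these, Fmod, a proteoglycan of collagen fibrils, had 25.4, 12.4 and 36.8 CPM in OE_4m and 2.01, 18.7, 12.1 and 0.44 CPM in OE_24m (log2 change -1.52 with SE 0.70, adjusted p = 0.455), and Thbs4, a thrombospondin of tendon, 34.5, 18.6 and 55.5 and 11.7, 17.9, 20.4 and 8.8 CPM (log2 change -1.25 with SE 0.38, adjusted p = 0.174). Prg4, the other member tested, had a positive change, with 30.8, 16.6 and 18.7 CPM and 14.5, 30.1, 51 and 6.6 CPM (log2 change 0.24 with SE 0.56, adjusted p = 0.939). Its change in WT was -1.44. The tendon markers overlapped between ages, and their part in the collagen falls was not tested. In bulk muscle, fewer cells of a type and less RNA per cell cannot be told apart. Cdh5 was not called without OE_4m replicate 2 (adjusted p = 0.0579). Pecam1 was not called without OE_4m replicates 1 or 2 or OE_24m replicates 3 or 4 or with the MCK-NamptOE libraries fitted alone (adjusted p = 0.0568 to 0.185). Cd34 was not called without OE_4m replicates 1, 2 or 3 or OE_24m replicates 1, 3 or 4 or with the MCK-NamptOE libraries fitted alone or with total-count scaling (adjusted p = 0.0514 to 0.231).

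Other secreted or matrix-related genes on the lower side were chosen for mention after their values were seen. The secreted serpin Serpinf1 went from 39.8, 26.8 and 29.3 CPM to 5.64, 16.1, 16.2 and 13.2 CPM (log2 change -1.31 with SE 0.24, adjusted p = 0.00864), the matricellular protein Sparcl1 from 57, 62 and 60.5 to 23.3, 34.4, 31.4 and 27.7 CPM (log2 change -1.04 with SE 0.21, adjusted p = 0.0181), and the gap junction protein Gja1 from 12.3, 11 and 10.1 to 6.44, 5.23, 3.4 and 4.4 CPM (log2 change -1.19 with SE 0.25, adjusted p = 0.0181). Nrep, a small cytoplasmic protein linked to myofibroblasts and nerve repair, had the steepest fall among called genes after Col1a2, from 62.8, 28.5 and 34.3 CPM to 8.86, 12.6, 5.67 and 9.24 CPM (log2 change -2.20 with SE 0.30, adjusted p = 0.00083), and kept its call under all 12 alternatives. Igfbp7, a secreted binding protein of insulin-like growth factors and the 1 called member of 18 growth and imprinted genes, had 24.6, 27.1 and 23.7 CPM and 10.9, 15.7, 15.5 and 11 CPM (log2 change -0.93 with SE 0.22, adjusted p = 0.0438). Serpinf1 was not called without OE_4m replicate 1 (adjusted p = 0.0883). Sparcl1 was not called without OE_4m replicates 1, 2 or 3 or OE_24m replicates 1 or 4 (adjusted p = 0.0514 to 0.129). Gja1 was not called without OE_4m replicates 1 or 2 or OE_24m replicate 3 or with the MCK-NamptOE libraries fitted alone (adjusted p = 0.0532 to 0.112). Igfbp7 was not called without OE_4m replicates 1, 2 or 3 or OE_24m replicates 1, 3 or 4 (adjusted p = 0.0613 to 0.241).

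Among slow fibre genes, 2 rose, Atp2a2 and Sln. Slow fibres pump calcium with SERCA2, the product of Atp2a2, and Sln encodes sarcolipin, a small membrane protein that inhibits and uncouples the SERCA pumps. Atp2a2 (chr5:122453513-122502225, minus strand) stood at 25.9, 19.2 and 25.2 CPM in OE_4m and 111, 59.2, 145 and 87.6 CPM in OE_24m, a 4.36-fold rise (log2 change 2.12 with SE 0.43, adjusted p = 0.0435). Sln (chr9:53850164-53854560, plus strand) had 1.23, 0.846 and 1.01 CPM at 4 months and 2.82, 6.53, 12.8 and 7.48 CPM at 24 months, with few reads in each library (log2 change 2.84 with SE 0.61, adjusted p = 0.0236). Atp2a2 was not called without OE_4m replicates 1, 2 or 3 or OE_24m replicates 1, 3 or 4 (adjusted p = 0.0778 to 0.231). Sln was not called without OE_4m replicates 1, 2 or 3 or OE_24m replicate 3 (adjusted p = 0.0707 to 0.225).

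Of 15 slow fibre genes tested, Atp2a2 and Sln rose, 0 fell and 13 were not called, but all 15 had a positive log2 fold change, of at least 0.61, and for 14 of the 15 every old library lay above every young one, against 5.09% of all genes tested. Casq2 was the exception. The median log2 fold change was 2.84, also with Tnnc1 set at its lower bound, and 0.02 over all genes tested. The members named next were chosen after their values were seen. Myh7, the slow and cardiac myosin heavy chain, had 1.64, 0.282 and 2.02 CPM in OE_4m and 103, 44.4, 144 and 149.7 CPM in OE_24m, and did not pass the test (log2 change 6.54 with SE 1.61, adjusted p = 0.106). Tnnt1, the slow skeletal troponin T, had 3.28, 0.846 and 2.52 CPM and 49.5, 24, 72.5 and 139.5 CPM (log2 change 5.10 with SE 1.17, adjusted p = 0.0866).

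Tnni1, the slow skeletal troponin I, had 3 counts over the 3 OE_4m libraries, all in replicate 3, and 247 over the 4 OE_24m libraries (counting ratio 67.6, 95% exact interval 22.9 to 330, adjusted p = 0.0549). That interval covers counting error and not the spread between libraries, and the OE_24m libraries held 77, 15, 47 and 108 counts. Tnnc1, the troponin C that slow muscle shares with heart, had 0 counts in all 3 OE_4m libraries and 26.2, 14.8, 29.1 and 63.8 CPM in OE_24m. Against a floor of 3 counts over the group it was at least 88.9-fold higher at 24 months (adjusted p = 0.0765). Tpm3, the slow tropomyosin, had 23.8, 17.8 and 19.7 CPM and 94.2, 49.2, 133 and 175 CPM (log2 change 2.47 with SE 0.54, adjusted p = 0.0669), and Actn2, an actinin of the Z disc, 249, 267 and 468 and 957, 653, 856 and 1336 CPM (log2 change 1.54 with SE 0.40, adjusted p = 0.12). Mb, the oxygen store myoglobin, had 717, 492 and 1379 CPM and 2354, 1833, 1436 and 3161 CPM (log2 change 1.35 with SE 0.58, adjusted p = 0.412). OE_24m replicate 4 was the highest old library for 12 of the 15 genes and OE_24m replicate 2 the lowest for 9, while OE_4m replicate 2 was the lowest young library for 10 and OE_4m replicate 3 the highest for 9.

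The same genes varied widely inside each WT age. Myh7 had 8.19, 0.318, 0.432 and 16.6 CPM in WT_4m and 63.3, 1.76, 40 and 0.362 CPM in WT_24m, and Tnnt1 8.19, 0.953, 1.73 and 5.19 and 29.4, 3.52, 22.8 and 0.362 CPM. WT_24m replicates 1 and 3 were high and replicates 2 and 4 low, for both genes, and the WT ages did not overlap for 1 of the 15, Sln (5.40% of all genes did not overlap in WT). The median over the 15 was 0.71 in WT, and 0 were called there. The difference of the age changes between genotypes was positive for all 15 genes and called for 0 (smallest adjusted p = 0.868, and 5 of 15 at an unadjusted p below 0.05 against 5.45% of all genes). Which part of the muscle was taken is not recorded, and its share in this pattern was not tested. The number of slow fibre genes called was 8 by DESeq2, 14 without a filter on low counts, 7 with the MCK-NamptOE libraries fitted alone and 4 without OE_24m replicate 2. It was 0 without any 1 of the 3 OE_4m libraries or OE_24m replicate 3 and 1 without OE_24m replicates 1 or 4.

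**Figure D3:**
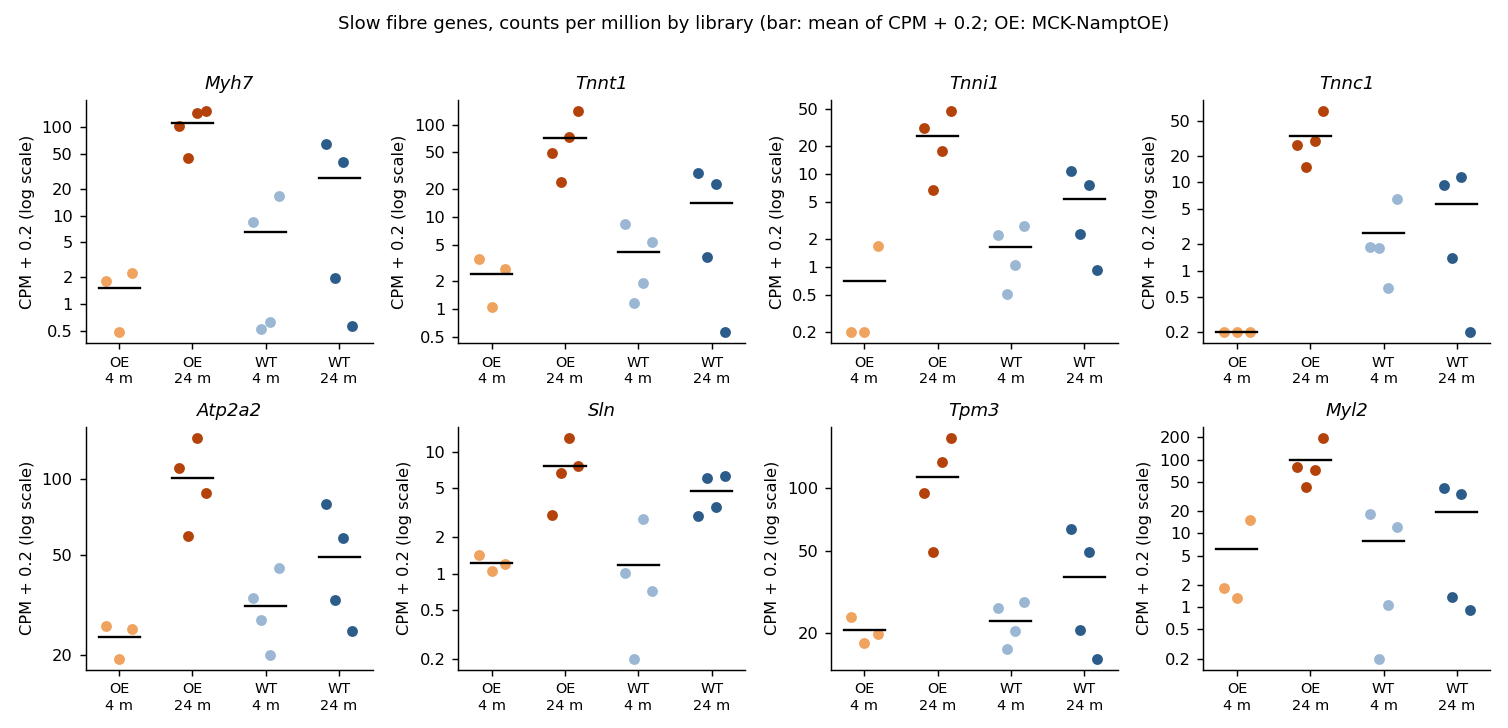
CPM + 0.2 (vertical axis, log scale) of 8 slow fibre genes in each library, as points by genotype and age (OE stands for MCK-NamptOE), with the group mean as a bar. Every OE_24m library lies above every OE_4m library in all 8 panels, while the 4 WT_24m libraries split into 2 high and 2 low for all genes drawn but Sln.

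Among fast fibre genes, 3 fell. Casq1 (chr1:172209894-172219868, minus strand), the calcium-binding protein of the fast fibre's sarcoplasmic reticulum, had 1732, 1574 and 1869.8 CPM in OE_4m and 719, 983, 647 and 939 CPM in OE_24m (log2 change -1.07 with SE 0.17, adjusted p = 0.00283), and its call held under all 12 alternatives. Myl1, a fast myosin light chain, went from 10724, 10270.1 and 11331 CPM to 5887, 6528, 6092 and 8398 CPM (log2 change -0.68 with SE 0.13, adjusted p = 0.0145). Ampd1, the AMP deaminase of muscle, was tight within both ages, at 873, 841 and 886 and 543, 607, 531 and 599 CPM (log2 change -0.60 with SE 0.13, adjusted p = 0.0184). In WT, Ampd1 had 512 to 696 CPM at 4 months and 513 to 665 CPM at 24 months (log2 change -0.07). The OE_4m libraries stood above every WT library, and the OE_24m libraries lay within the WT range. The difference between the genotypes at 4 months was not called for Ampd1 (adjusted p = 0.959). Nor was the difference of its age changes (adjusted p = 0.696). Nampt was the only gene called between the genotypes at either age. Myl1 was not called without OE_4m replicates 1 or 2 or OE_24m replicate 1 or with the MCK-NamptOE libraries fitted alone (adjusted p = 0.0566 to 0.0718). Ampd1 was not called without OE_4m replicates 1, 2 or 3 or OE_24m replicates 1 or 3 (adjusted p = 0.0515 to 0.105).

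Of 20 fast fibre genes tested, those 3 fell, 0 rose and 17 were not called, 18 had a negative log2 fold change, and the median was -0.25. Over all genes tested, 0.416% were called lower. Lower values in every old library were found for 7 of the 20 (5.24% of all genes had them). In WT all 20 had a negative log2 fold change, with a median of -0.15 and 0 called. The 2 with a positive change in MCK-NamptOE were Myh1 and Myh2, the myosins of the IIx and IIa fibres, which are the less extreme of the fast types. Myh2 had 161, 55.8 and 393 CPM at 4 months and 658, 521, 431 and 928 CPM at 24 months (log2 change 1.66 with SE 0.89, adjusted p = 0.533), and Myh1 1684, 1671 and 1828 and 3038, 2412, 3116 and 3087 CPM (log2 change 0.75 with SE 0.39, adjusted p = 0.513). Their ages did not overlap (5.09% of all genes were higher without overlap), and neither was called. The IIb myosin Myh4 had 60405, 54006 and 42243 and 46703, 44379, 47848 and 43329.8 CPM (log2 change -0.20 with SE 0.14, adjusted p = 0.646). In the list of 31 calcium handling and excitation genes, Sypl2, a triad protein also called mitsugumin 29, was the 1 member called, at 189, 165 and 162 CPM in OE_4m and 98.2, 121, 87.6 and 126 CPM in OE_24m (log2 change -0.67 with SE 0.15, adjusted p = 0.0236). Sypl2 was not called without OE_4m replicates 1 or 2 or OE_24m replicates 1 or 3 or with the MCK-NamptOE libraries fitted alone (adjusted p = 0.0629 to 0.153).

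The 250 bases before the start of 4 of these genes are shown to set 2 slow fibre genes, whose log2 fold changes were positive but not called, beside a fast fibre gene and a collagen gene that fell. They come from the RefSeq promoter table of build GRCm38.p6, 5′ to 3′ on the gene's strand, for genes whose window lies wholly outside the annotated gene. Capitals mark 4 motifs searched on both strands: the E-box CANNTG, bound by myogenic factors, CCAAT, the M-CAT element CATTCC, bound by TEAD factors, and TATAAA. Myh7 (chr14:54994627-54994876, minus strand) and Tnnc1 (chr14:31208062-31208311, plus strand) are of the slow group, Casq1 (chr1:172219896-172220145, minus strand) of the fast group, and Col5a3 (chr9:20815068-20815317, minus strand) of the collagens.
Myh7: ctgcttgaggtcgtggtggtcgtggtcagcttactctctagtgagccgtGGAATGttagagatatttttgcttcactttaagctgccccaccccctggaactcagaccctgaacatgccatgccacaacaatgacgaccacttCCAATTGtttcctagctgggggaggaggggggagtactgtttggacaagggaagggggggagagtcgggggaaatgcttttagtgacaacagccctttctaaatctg
Tnnc1: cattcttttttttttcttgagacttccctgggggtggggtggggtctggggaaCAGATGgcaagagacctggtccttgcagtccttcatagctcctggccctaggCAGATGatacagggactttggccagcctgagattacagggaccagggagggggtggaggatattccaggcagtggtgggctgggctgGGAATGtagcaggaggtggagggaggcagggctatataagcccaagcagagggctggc
Casq1: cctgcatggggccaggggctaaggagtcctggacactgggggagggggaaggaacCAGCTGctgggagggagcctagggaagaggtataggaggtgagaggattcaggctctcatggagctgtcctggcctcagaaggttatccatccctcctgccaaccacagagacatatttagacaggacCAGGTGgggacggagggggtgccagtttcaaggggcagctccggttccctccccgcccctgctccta
Col5a3: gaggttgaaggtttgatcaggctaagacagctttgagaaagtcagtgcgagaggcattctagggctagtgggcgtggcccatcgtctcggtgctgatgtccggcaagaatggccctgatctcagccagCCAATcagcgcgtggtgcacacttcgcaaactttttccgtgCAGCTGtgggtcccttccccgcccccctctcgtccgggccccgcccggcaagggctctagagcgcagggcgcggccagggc
CATTCC or its reverse complement was found once each before Myh7 and Tnnc1 and 0 times before Casq1 and Col5a3, and 12.6% of the 32851 windows in the table hold it. An E-box was found in all 4 windows (66.2% of all windows hold one), CCAAT in those of Myh7 and Col5a3 (33.8%), and TATAAA in none of the 4 (12.4%). In the Myh7 window the CCAAT and the E-box overlap. Windows are shown for 4 of the 78 named genes that have one, so nothing is read from how the motifs fall between the groups. A match is a description of these letters in this window.

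Most genes that respond to the loss of nerve contact had positive changes, with 1 call. Of 25 denervation-responsive genes tested, Sln rose, 0 fell, 21 had a positive log2 fold change and 9 had higher values in every old library (5.09% of all genes did), with a median of 0.83 in MCK-NamptOE and 0.45 in WT. Sln is also one of the slow fibre genes, as is Csrp3. Myog, the myogenic factor myogenin, had 2.46, 3.66 and 2.52 CPM in OE_4m and 14.1, 8.28, 9.82 and 6.6 CPM in OE_24m and was not called (log2 change 1.69 with SE 0.46, adjusted p = 0.0983). Runx1 had 6.16, 3.95 and 4.04 and 4.43, 14.8, 15.9 and 7.92 CPM (log2 change 1.20 with SE 0.37, adjusted p = 0.144), and the receptor kinase of the neuromuscular junction Musk 7.39, 8.17 and 6.05 and 18.1, 27, 55.9 and 8.8 CPM (log2 change 1.91 with SE 0.71, adjusted p = 0.314). The acetylcholine receptor subunit Chrna1 had 9.85, 9.87 and 9.08 and 13.7, 11.8, 20 and 12.3 CPM (log2 change 0.59 with SE 0.30, adjusted p = 0.48). The number called was 11 without a filter on low counts, 3 with the MCK-NamptOE libraries fitted alone and 2 without OE_24m replicate 1, and it was 0 without any 1 OE_4m library or without OE_24m replicate 3. Among 19 regeneration and satellite cell genes 0 were called. The fetal and cardiac actin Actc1 had 563, 779 and 248 CPM in OE_4m and 74.5, 100.2, 259 and 121 CPM in OE_24m, where OE_24m replicate 3 overlapped the lowest young library (log2 change -1.94 with SE 0.61, adjusted p = 0.22).

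The other large rises that were called did not share a list. Slc6a17, a transporter of neutral amino acids known from synaptic vesicles, had the largest rise among called genes, from 0.821, 0.846 and 1.51 CPM to 6.04, 4.36, 14.4 and 5.72 CPM (log2 change 2.88 with SE 0.56, adjusted p = 0.0121), with OE_24m replicate 3 well above the rest. Ttc9 went from 1.23, 1.97 and 2.02 CPM to 15.7, 7.84, 9.82 and 11.9 CPM (log2 change 2.66 with SE 0.38, adjusted p = 0.000793) and Amy1, an amylase, from 26.3, 27.3 and 24.7 to 66.4, 111, 92.2 and 77.9 CPM (log2 change 1.73 with SE 0.20, adjusted p = 5.91e-05), and these 2 kept their calls under all 12 alternatives. Amy1 has close copies in the mouse genome, so reads could be shared with them. Tmem132b had 3.28, 1.69 and 5.05 CPM in OE_4m and 16.5, 16.6, 13.2 and 6.6 CPM in OE_24m (log2 change 2.09 with SE 0.34, adjusted p = 0.00264), and Tiam2, an exchange factor for Rac, 2.05, 1.41 and 4.54 and 8.86, 5.23, 13.6 and 7.92 CPM (log2 change 1.86 with SE 0.38, adjusted p = 0.0177). Slc6a17 was not called without OE_4m replicates 1 or 2 (adjusted p = 0.0837 to 0.138). Tmem132b was not called without OE_4m replicate 2 (adjusted p = 0.0673). Tiam2 was not called without OE_4m replicates 1 or 2 or OE_24m replicate 3 or with the MCK-NamptOE libraries fitted alone (adjusted p = 0.0682 to 0.21).

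Several rises concerned small molecule transport and mitochondrial enzymes, a grouping made after the values were seen. Slc1a1, a glutamate and aspartate transporter, had 4.1, 2.82 and 3.53 CPM in OE_4m and 6.44, 11.3, 11.3 and 12.8 CPM in OE_24m (log2 change 1.60 with SE 0.33, adjusted p = 0.0181). Slc25a33, a mitochondrial carrier of pyrimidine nucleotides, had 6.57, 1.97 and 4.04 and 7.65, 9.58, 11 and 16.3 CPM (log2 change 1.47 with SE 0.35, adjusted p = 0.0438), and Dhtkd1, a mitochondrial dehydrogenase of lysine breakdown, 6.98, 2.25 and 5.05 and 10.5, 11.3, 12.8 and 12.8 CPM (log2 change 1.39 with SE 0.30, adjusted p = 0.0236). For both, the nearest libraries of the 2 ages lay close together. Pank1, which starts the synthesis of coenzyme A, went from 20.9, 21.7 and 28.8 to 46.7, 46.6, 63.1 and 37.4 CPM (log2 change 1.04 with SE 0.22, adjusted p = 0.0181). Adprhl1, a muscle and heart relative of the ADP-ribosylhydrolases, had 6.16, 4.23 and 12.6 CPM and 22.9, 19.2, 17.8 and 32.1 CPM (log2 change 1.67 with SE 0.33, adjusted p = 0.015). Slc1a1 and Adprhl1 were not called without OE_4m replicates 1 or 2 (adjusted p = 0.0597 to 0.178). Slc25a33 was not called without OE_4m replicates 2 or 3 or OE_24m replicates 3 or 4 or with the MCK-NamptOE libraries fitted alone (adjusted p = 0.0888 to 0.37). Dhtkd1 was not called without OE_4m replicates 2 or 3 or OE_24m replicate 3 or with the MCK-NamptOE libraries fitted alone (adjusted p = 0.0514 to 0.289). Pank1 was not called without OE_4m replicates 1 or 2 or OE_24m replicate 3 (adjusted p = 0.0692 to 0.158).

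The 7 rises described next share no list. The tubulin Tubb6 had 9.03, 9.87 and 12.6 CPM at 4 months and 32.6, 22.2, 22.3 and 34.3 CPM at 24 months (log2 change 1.42 with SE 0.26, adjusted p = 0.00798). Filamin C (Flnc), which links the Z disc to actin and the membrane, had 680.5, 715 and 619.6 and 1985, 1202, 1154 and 1635 CPM (log2 change 1.15 with SE 0.24, adjusted p = 0.025), and the regulatory light chain Myl12a 119, 98.7 and 148 and 348, 228, 249 and 343 CPM (log2 change 1.27 with SE 0.22, adjusted p = 0.00698). Vgll2, a muscle cofactor of the TEAD factors, had 27.5, 28.2 and 34.3 CPM and 56.8, 45.3, 60.1 and 76.6 CPM (log2 change 1.0 with SE 0.21, adjusted p = 0.0184), Dot1l, the methyltransferase of histone H3 lysine 79, 30, 29.3 and 27.7 and 72, 47.9, 50.2 and 44.9 CPM (log2 change 0.89 with SE 0.17, adjusted p = 0.0121), and Nfkb2, a subunit of NF-kappaB, 4.51, 4.79 and 4.54 and 10.1, 13.9, 15.9 and 7.92 CPM (log2 change 1.36 with SE 0.30, adjusted p = 0.0236). Aldh1a1, which makes retinoic acid, was the 1 called member of 36 antioxidant and detoxification genes, at 138, 101 and 101 and 162, 241, 177 and 227 CPM (log2 change 0.83 with SE 0.15, adjusted p = 0.00798). All of these but Tubb6 and Aldh1a1 were named after their values were seen. Tubb6, Vgll2 and Dot1l were not called without OE_4m replicates 1 or 2 (adjusted p = 0.0597 to 0.158). Flnc was not called without OE_4m replicates 1, 2 or 3 or OE_24m replicates 1 or 4 (adjusted p = 0.0623 to 0.143). Myl12a was not called without OE_4m replicate 2 (adjusted p = 0.0718). Nfkb2 was not called without OE_4m replicates 1, 2 or 3 or OE_24m replicates 2 or 3 or with the MCK-NamptOE libraries fitted alone (adjusted p = 0.0532 to 0.158). Aldh1a1 was not called without OE_4m replicate 2 or with the MCK-NamptOE libraries fitted alone (adjusted p = 0.0519 to 0.0957).

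Among the remaining falls, Smox, the spermine oxidase of polyamine breakdown, had 119, 142 and 254 CPM in OE_4m and 63.6, 74.9, 44.2 and 40.1 CPM in OE_24m (log2 change -1.62 with SE 0.28, adjusted p = 0.0121). It was the 1 called member of 9 polyamine genes and kept its call under all 12 alternatives. Cdkn1b, the cell cycle inhibitor p27, had 100.1, 90.8 and 79.7 and 43.5, 60.6, 48.7 and 50.2 CPM (log2 change -0.83 with SE 0.15, adjusted p = 0.00798), and was the 1 called of 18 genes of p53, cell cycle arrest and senescence. Enpep, an aminopeptidase that cuts angiotensin, had 6.98, 6.48 and 3.53 CPM and 0.805, 1.31, 1.89 and 0.88 CPM (log2 change -2.19 with SE 0.48, adjusted p = 0.0236), and the long noncoding RNA AW112010 6.98, 7.05 and 5.05 and 1.61, 1.74, 2.27 and 1.32 CPM (log2 change -1.86 with SE 0.37, adjusted p = 0.0161). Tigd4, a gene derived from a transposase, had 16, 13.5 and 17.2 CPM and 2.42, 7.41, 7.93 and 5.28 CPM (log2 change -1.41 with SE 0.29, adjusted p = 0.0181). Cdkn2a, which encodes the senescence marker p16, was below the test's filter, with 1 count over the 3 OE_4m libraries and 0 over the 4 OE_24m libraries. Cdkn1b and AW112010 were not called without OE_4m replicates 1 or 2 (adjusted p = 0.0659 to 0.139). Enpep was not called without OE_4m replicates 1 or 2 or OE_24m replicates 1 or 4 (adjusted p = 0.0664 to 0.191). Tigd4 was not called without OE_4m replicates 1, 2 or 3 or OE_24m replicate 1 (adjusted p = 0.0515 to 0.0894).

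The fixed lists of energy metabolism held 1 call. Pgm2, a phosphoglucomutase that links glycogen to glycolysis, fell from 483, 588 and 809 CPM to 361, 427, 352 and 317 CPM (log2 change -0.78 with SE 0.17, adjusted p = 0.0188) and was the 1 called of 36 glycolysis and glycogen genes. Of 31 genes of fatty acid uptake and oxidation 0 were called, 28 had a positive log2 fold change and 9 had higher values in every old library (5.09% of all genes did), with a median of 0.26 in MCK-NamptOE and -0.02 in WT. Hadha, a subunit of the trifunctional protein of beta-oxidation, had 232, 226 and 253 CPM in OE_4m and 339, 328, 327 and 318 CPM in OE_24m (log2 change 0.47 with SE 0.15, adjusted p = 0.151). The 77 nuclear genes of the respiratory chain had 0 calls and 74 positive changes, with a median of 0.29 (WT -0.11), and the 22 genes of the tricarboxylic acid cycle 0 calls and 19 positive changes. Idh2, the mitochondrial isocitrate dehydrogenase that makes NADPH, had 83.3, 57.5 and 85.3 and 183, 132, 176 and 397 CPM (log2 change 1.57 with SE 0.40, adjusted p = 0.115). Atp5b, a subunit of ATP synthase, had 1104 to 1377 and 1229 to 1812 CPM (log2 change 0.29 with SE 0.15, adjusted p = 0.506). The 7 mitochondrially encoded mRNAs tested had 0 calls, and the share of counts on mitochondrial genes was 26.1 to 29.4% in OE_4m and 27.5 to 31.6% in OE_24m. The 78 cytosolic ribosomal protein genes had 0 calls and 75 positive changes (median 0.23). Pgm2 was not called without OE_4m replicates 2 or 3 or OE_24m replicates 1 or 3 or with the MCK-NamptOE libraries fitted alone (adjusted p = 0.0582 to 0.134).

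Of 11 genes of NAD synthesis and salvage 0 were called. Nmrk2, the muscle nicotinamide riboside kinase, had 0.821, 1.13 and 5.55 CPM in OE_4m and 30.2, 20, 2.64 and 40.9 CPM in OE_24m, where replicate 3 was lower than the highest young library (log2 change 3.38 with SE 1.11, adjusted p = 0.233). Of 21 NAD-consuming enzymes 0 were called. Parp9, an inactive relative of the poly(ADP-ribose) polymerases, had 5.75, 5.07 and 6.05 CPM and 1.21, 1.31, 2.27 and 1.32 CPM (log2 change -1.82 with SE 0.47, adjusted p = 0.0685), and Cd38, the main NAD glycohydrolase of tissue, 4.92, 6.76 and 4.04 and 2.42, 2.18, 1.89 and 3.08 CPM (log2 change -1.17 with SE 0.37, adjusted p = 0.163). Parp9 and Cd38 had lower values in every old library, as 2 of the 21 did (5.24% of all genes did). The median of the 21 was -0.06 (WT 0.01), and 7 had a positive log2 fold change. Parp9 is also one of the interferon response genes. Nmrk2, Parp9 and Cd38 were named after their values were seen. The most expressed member, the ADP-ribosyltransferase Art1, had 305 to 357 CPM at 4 months and 276 to 381 CPM at 24 months (log2 change -0.09 with SE 0.14, adjusted p = 0.88).

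The lists of interferon response, antigen presentation and immune cell markers held 1 call. Gbp7, an interferon-induced GTPase with close relatives in the genome, fell from 17.2, 18.6 and 12.6 CPM to 5.23, 5.66, 3.4 and 4.4 CPM (log2 change -1.81 with SE 0.26, adjusted p = 0.000793) and kept its call under all 12 alternatives. It was the 1 called of 16 interferon response genes, whose median was -0.41. All 12 antigen presentation genes tested had a negative log2 fold change, 6 had lower values in every old library (5.24% of all genes did) and 0 were called, with a median of -0.58 in MCK-NamptOE and -0.01 in WT. Cd74, the invariant chain of class II molecules, had 36.9, 34.7 and 27.2 CPM in OE_4m and 16.9, 18.3, 27.2 and 13.6 CPM in OE_24m (log2 change -0.79 with SE 0.21, adjusted p = 0.0765), and the class I chain B2m 153, 179 and 152 and 108, 147, 128 and 127 CPM (log2 change -0.35 with SE 0.17, adjusted p = 0.465). Igkc, the constant part of the kappa light chain, had 1.64, 2.25 and 0.505 CPM and 11.3, 2.18, 8.31 and 8.8 CPM and was not called (log2 change 2.22 with SE 0.61, adjusted p = 0.106), while it rose in WT (log2 change 3.05 with SE 0.56, adjusted p = 0.0302), and the difference was not called (adjusted p = 0.952). The heavy chain Ighm had 39, 26.2 and 48.9 and 45.9, 148, 76.3 and 48.4 CPM (log2 change 1.09 with SE 0.44, adjusted p = 0.364). Of 15 macrophage and monocyte markers 0 were called.

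**Figure D4:**
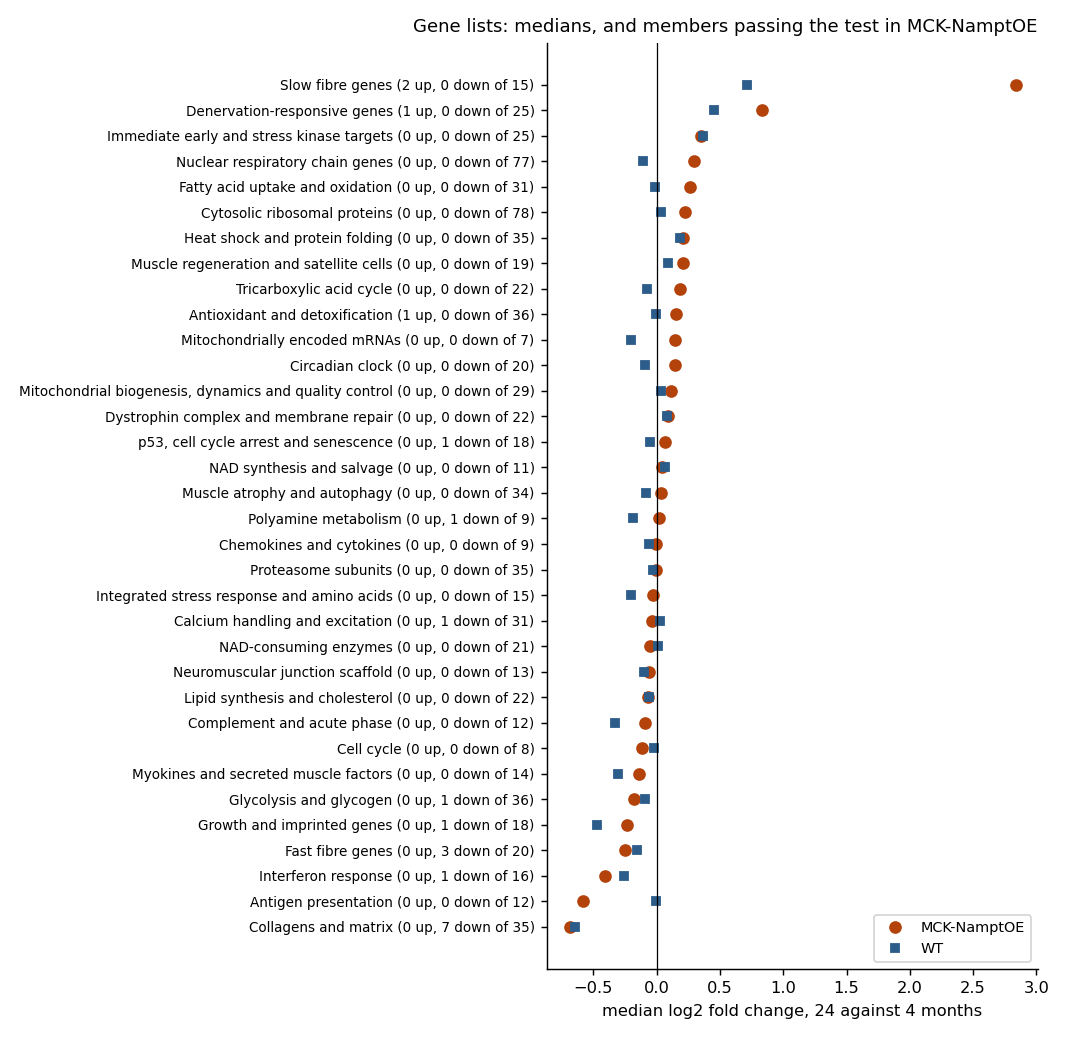
Median log2 fold change with age (horizontal axis) of the tested members of each functional gene list (cell type marker lists are not drawn) in MCK-NamptOE (circles) and WT (squares), with the numbers of members called higher and lower in MCK-NamptOE beside each name. Of the lists drawn, slow fibre genes have the highest median (2.84, WT 0.71) and collagen and matrix genes the lowest (-0.69, WT -0.65), while medians near 0, such as those of the proteasome, polyamine, cell cycle and NAD synthesis lists, change sign with the processing.

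Ageing in WT muscle gave 14 calls (0.153% of 9144 genes), 6 higher (0.0656%) and 8 lower (0.0875%) (14 and 5 with total-count scaling, 2 in all without WT_24m replicate 2), and 7 genes were called in both genotypes: Col1a1, Col1a2, Nrep, Gbp7 and Cdh5 lower, and Amy1 and Tmem132b higher. These were 10.4% of the MCK-NamptOE calls and 50% of the WT calls, and each had the same direction in both. Of the 67 MCK-NamptOE calls, 59 had the same sign in WT. The 29 rises had a median of 1.24 in MCK-NamptOE and 0.28 in WT, and the 38 falls -1.04 and -0.45. These genes were chosen on their MCK-NamptOE values, so nothing is read from the smaller size in WT. Across the 9144 genes, the log2 fold changes of the 2 genotypes had a Pearson r of 0.33 and a Spearman rho of 0.21, a description in which genes are not independent.

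The test of the difference itself, the interaction of age and genotype, called 0 of 9144 genes by edgeR (498 at an unadjusted p below 0.05, smallest adjusted p = 0.442), and 1 by DESeq2, Acss1 (0.00581% of the genes it tested). Its median SE was 0.31, larger than the 0.23 of the MCK-NamptOE age change, and none of the changes described here is shown to be particular to MCK-NamptOE. The 6 genes with the smallest interaction p included 2 with positive and 4 with negative differences. Nuak1, a kinase of the AMPK family, had 23, 24.8 and 22.7 CPM in OE_4m, 39, 31.4, 49.1 and 34.3 CPM in OE_24m, 45, 33.7, 45 and 46.2 CPM in WT_4m and 36.6, 34.9, 30.3 and 31.5 CPM in WT_24m (difference 1.05, adjusted p = 0.442). Reep1, an endoplasmic reticulum shaping protein, had 50.1, 39.2 and 46.9, then 28.6, 36.6, 32.1 and 24.2 CPM in MCK-NamptOE and 29.5, 36.5, 32.4 and 32.7, then 48.1, 49.3, 36 and 48.2 CPM in WT (difference -1.04, adjusted p = 0.442). In both genes the OE_4m libraries stood apart from the WT_4m libraries, but neither was called between the genotypes at 4 months. Camta1 was the 1 of the 6 that was also called with age in MCK-NamptOE (log2 change 0.95 with SE 0.19, adjusted p = 0.0181), and its WT values were 32.3, 23.5, 22.9 and 32.7 CPM and 26.7, 25.3, 27 and 18.1 CPM. Gdpd5, Rps6kc1 and Zfp9 had differences of -2.31, -1.28 and -1.48, with adjusted p = 0.442, 0.442 and 0.462. Camta1 was not called without OE_4m replicates 1 or 2 (adjusted p = 0.0916 to 0.112).

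**Figure D5:**
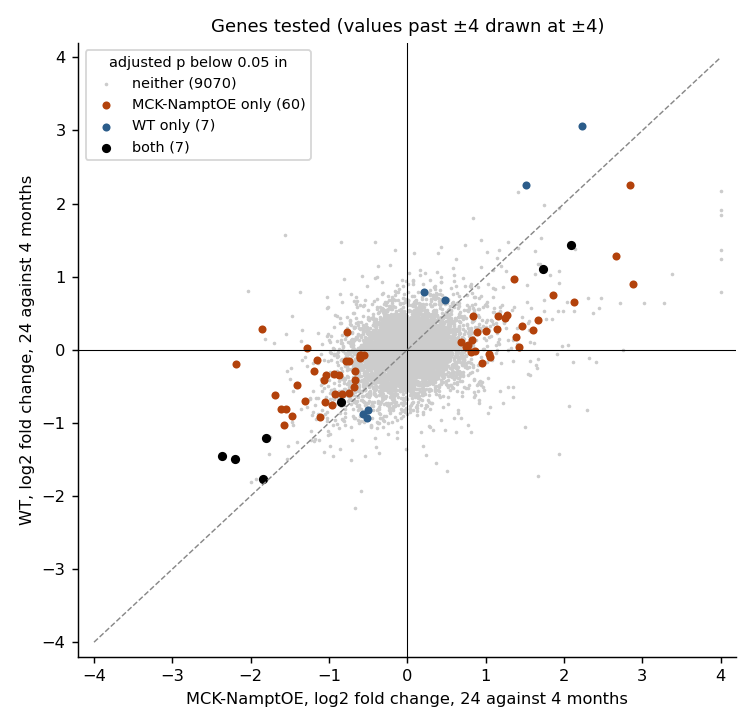
Log2 fold change with age in WT (vertical axis) against MCK-NamptOE (horizontal axis) for the 9144 genes tested, coloured by where the adjusted p was below 0.05, with the line of equal change dashed and values past 4 or -4 drawn at those limits. The 7 genes called in both lie in the lower left and upper right, and all of the 60 called in MCK-NamptOE alone lie nearer to 0 in WT than the dashed line. Those 60 were chosen by passing in MCK-NamptOE and not in WT, so nothing is read from their smaller size in WT.

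The authors' deposited table of the same comparison lists 11878 genes and has 426 at an adjusted p below 0.05 (3.59%), 227 higher and 199 lower. In the authors' deposited table, 64 of the 67 genes called here pass too, and all 67 have the same sign. Of its 426 genes, 370 were tested here, all with the same sign, and 329 of them had an unadjusted p below 0.05. The authors' deposited table calls 9 of its 17 slow fibre genes higher, 16 of its 42 collagen and matrix genes lower, 8 of its 32 denervation-responsive genes higher and 3 of its 22 antigen presentation genes lower. Its mean of normalised counts was 4.62 times the mean of the deposited counts (5th to 95th percentile 4.37 to 4.89 over 2505 genes with a mean count of at least 100). What made this difference is not given in the sources used here.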

How the data were processed

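Poly(A) mRNA of mouse quadriceps was sequenced, and raw counts per gene were deposited by the authors as 1 file per library. Per the submitters' processing notes, the tools were cutadapt 1.4.2, TopHat2, HTSeq, DESeq and DESeq2 with build mm10; their order, settings and strand handling are not given in the sources used here. Rows that name no gene held 33.6 to 40.0% of each file's counts and were left out. The authors' deposited comparison tables give a mean of normalised counts per gene (a signal value), a log2 fold change and its SE, a test score and p-values, and were used as deposited.

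From the counts, 15 libraries of 4 groups were fitted with edgeR 4.0.16 in R 4.3.3 (filterByExpr by group, TMM, robust quasi-likelihood F test, 11 residual degrees of freedom, Benjamini-Hochberg adjustment), with contrasts for age in each genotype and for their difference. The 7-month libraries of the series were not used. The 15 libraries had TMM factors of 0.921 to 1.08 and a biological coefficient of variation of 16.0%. That the libraries came from separate animals is read from the numbers in their titles; p-values measure the spread between these libraries. DESeq2 1.42.0, total-count scaling, no filter, a stricter filter (5 CPM in 3 libraries), fits of 1 genotype alone and leaving out each library were the alternatives. The fitting script was tested on simulated data.

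Genes were named by a rule: Nampt, the 12 largest rises and 12 largest falls among called genes that reached a mean of 1 CPM and did not overlap between ages, up to 4 called members of each gene list or else its 2 most expressed, and the 6 smallest interaction p-values. Genes in the text outside this rule were chosen after their values were seen. The comparison and the gene lists were chosen with earlier results of these data known.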

Additional observations from a re-analysis of the deposited data

Results flagged for a closer look

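Among 123 values checked over the 4 OE_24m libraries, 7 had 1 library far from the others by Dixon's test, which chance gives for about 1 in 20 values. OE_24m replicate 3 had 14.4 CPM of Slc6a17 against 4.36 to 6.04 CPM in the other three. The same library had 65960 CPM of mt-Co1, a mitochondrially encoded subunit of cytochrome oxidase, against 80172 to 81665 CPM. Its share of counts on mitochondrial genes was 27.5% against 31.0 to 31.6%, and the share of its 10 most abundant genes 37.1% against 40.4 to 40.7%. OE_24m replicate 4 had 591 CPM of the ribosomal protein gene Rps24 against 341 to 371 CPM. It also had 230.2 CPM of the lysosomal protease gene Ctsb against 172 to 177 CPM. The summed markers of ectopic mesothelial and epithelial cells, which rest on few reads, stood at 2.18 CPM in OE_24m replicate 2 against 3.78 to 4.03 CPM.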

How the results depend on the processing

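None of the 67 MCK-NamptOE calls turned in direction under those of the 12 alternatives that gave it a value, and 8 of the 67 were called under all 12: Amy1 and Ttc9 higher, and Col1a2, Nrep, Col1a1, Gbp7, Smox and Casq1 lower. The number called, 67 (29 higher, 38 lower), was 126 by DESeq2 (68 and 58) and 354 without a filter on low counts (216 and 138), both with all 67 among them. With the MCK-NamptOE libraries fitted alone it was 70 (45 and 25), 41 of them shared. Leaving out 1 library gave 11 to 87 calls, 2 to 42 higher and 9 to 45 lower, with 22 without OE_4m replicate 1 and 11 without OE_4m replicate 2. Falls numbered 22 without OE_24m replicate 1 and 25 without OE_24m replicate 3.

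In WT, the 14 calls (6 and 8) became 33 by DESeq2 (13 and 20), 187 without a filter (81 and 106) and 19 with total-count scaling (14 and 5), and 2 to 9 when 1 library was left out (0 to 5 higher, 1 to 6 lower). The interaction, with 0 calls by edgeR, gave 1 by DESeq2 (1 higher), 106 without a filter (89 higher and 17 lower) and 0 when any 1 library was left out. Of all listed genes 22 were called, 44 by DESeq2, 114 without a filter and 6 to 31 when 1 library was left out. The cause of these shifts was not tested.

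Enpep, AW112010 and Gdpd5 gave no value under the stricter filter, which they did not pass, nor did Enpep with the MCK-NamptOE libraries fitted alone. No paired analysis was possible because the libraries carry animal numbers that differ between groups and no replicate number in their titles. With 2032544 to 3443762 counts on genes per library, genes of a few CPM rest on few reads, and the floor of 3 counts over the OE_4m group came to 0.377 CPM. Intervals and floors cover counting error only.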

Other observations

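Small heat shock proteins, chaperones that bind to the contractile and intermediate filaments of muscle, stood higher in old MCK-NamptOE muscle without passing the test. They were picked after their values were seen. Hspb7 had 465, 278 and 468 CPM in OE_4m and 1802, 1118, 783 and 1786 CPM in OE_24m (log2 change 1.77 with SE 0.57, adjusted p = 0.224). Cryab, which encodes alpha B crystallin, had 329, 165 and 469.7 CPM and 1121, 555, 507 and 1497 CPM (log2 change 1.52 with SE 0.52, adjusted p = 0.262), and Hspb1 111, 93.3 and 139 and 224, 186, 176 and 365 CPM (log2 change 1.06 with SE 0.33, adjusted p = 0.195). Of 35 heat shock and protein folding genes tested by edgeR 0 were called, 27 had a positive log2 fold change, 6 had higher values in every old library (5.09% of all genes did) and 8 had a positive change at an unadjusted p below 0.05 (1010 of 9144 genes had such a p, in either direction), with a median of 0.21 in MCK-NamptOE and 0.18 in WT.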
